A study of Arabidopsis thaliana with 9 samples.

Results

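Terpene synthase genes and prenyl diphosphate synthase genes were compared in root tips of Cvi, Ler and NIL 170G-55-16 (synonym HGI2.1), a near isogenic line. Of 43 listed loci, 22 have a probe set of their own in the annotation of the array used here, 18 of them terpene synthase genes and 4 prenyl diphosphate synthase genes of the geranylgeranyl diphosphate synthase family. The members are therefore 22 of 22746 probe sets tested. One further probe set is shared by the 1,8-cineole synthase genes AT3G25820 and AT3G25830 and was kept apart, and the other 20 loci were not analysed here.

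The accessions are given by the labels as Cape Verde Islands (Cvi-1) and Landsberg erecta (Ler-2), and the NIL is a single line. Each genotype was represented by 3 Affymetrix ATH1 arrays, each hybridized with RNA of about 600 pooled root tips of 7 mm from seedlings 5 d old, grown upright for 2 d and at a tilt of 30° for 3 d, all on the same medium with no treatment named. A root tip holds many cell types, so fewer cells of a type and less RNA per cell cannot be told apart in these values. Of 28 listed marker genes for root cell types and shoot photosynthesis, 2 are named in the annotation used here. It lists no gene for 8730 of the 22746 probe sets, so a gene it does not name may still have a probe set. The root hair expansin gene EXPA7 gave signals of 862 to 1348 over the arrays, and its difference between Cvi and Ler was 0.26 (adjusted p = 0.233 from limma). The second, RCA, which encodes the Rubisco activase of green tissue, gave 354 to 611. RCA was lower in Cvi than in Ler, at a log2 difference of −0.47 (adjusted p = 0.0467). Cvi array 1 stood apart, with correlations of 0.978 and 0.980 to the other Cvi arrays, whereas the arrays of each other genotype correlated at 0.996 or more. Without Cvi replicate 1, EXPA7 was called higher in Cvi than in Ler at 0.39 (adjusted p = 0.0129), with a NIL minus Cvi difference of −0.48 (adjusted p = 0.00438). RCA was then at −0.60 between Cvi and Ler (adjusted p = 0.00173) and at 0.52 between the NIL and Cvi (adjusted p = 0.00524). The part of these marker differences in the results was not tested.

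Terpenes are built from 5-carbon isoprene units that arise in the mevalonate pathway of the cytosol and the MEP pathway of plastids. Prenyl diphosphate synthases join these units into linear chains, and terpene synthases turn the chains into the carbon skeletons of volatile and non-volatile terpenes. In Arabidopsis the largest subfamily, TPS-a, holds sesquiterpene, diterpene and sesterterpene synthases, many of them active in roots, whereas the TPS-b subfamily makes monoterpenes. Several genes of both families lie side by side in the genome.

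The deposited value is 1 hybridization signal per probe set and array, on a linear scale. Differences are on the log2 scale from a single limma fit to all 9 arrays, and genes count as called where the p adjusted by Benjamini-Hochberg over all probe sets lies under 0.05. Between Cvi and Ler 9 of the 22 genes were called, 7 lower and 2 higher in Cvi, which is 40.9% of them, whereas 13.0% of all probe sets were called (7.27% lower and 5.75% higher). With a fold of at least 2 as a further condition, 7 of the 22 were called (31.8%), against 3.88% of all probe sets. The NIL differed from Ler at 1 of the 22 genes (4.55%, against 0.356% of all probe sets), where the NIL was lower (0.255% of all probe sets). None of the 22 was called higher in the NIL than in Ler in limma, as against 0.101% of all probe sets. At an unadjusted p under 0.05, 0 of the 22 were higher and 2 lower in the NIL, beside 236 higher and 638 lower of all 22746 probe sets. The NIL differed from Cvi at 7 genes (31.8%, against 10.8%), 6 of them higher in the NIL (5.23% of all probe sets) and 1 lower (5.61%). With the 2-fold condition 6 of the 22 differed between the NIL and Cvi (27.3%, against 3.39%). The median difference between Cvi and Ler was −0.12 over the 22 genes and 0.01 over all probe sets. All 3 comparisons use the same 9 arrays, so they are not independent of each other. The members were chosen with earlier results of these data known, so their shares are not independent evidence.

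**Figure D1:**
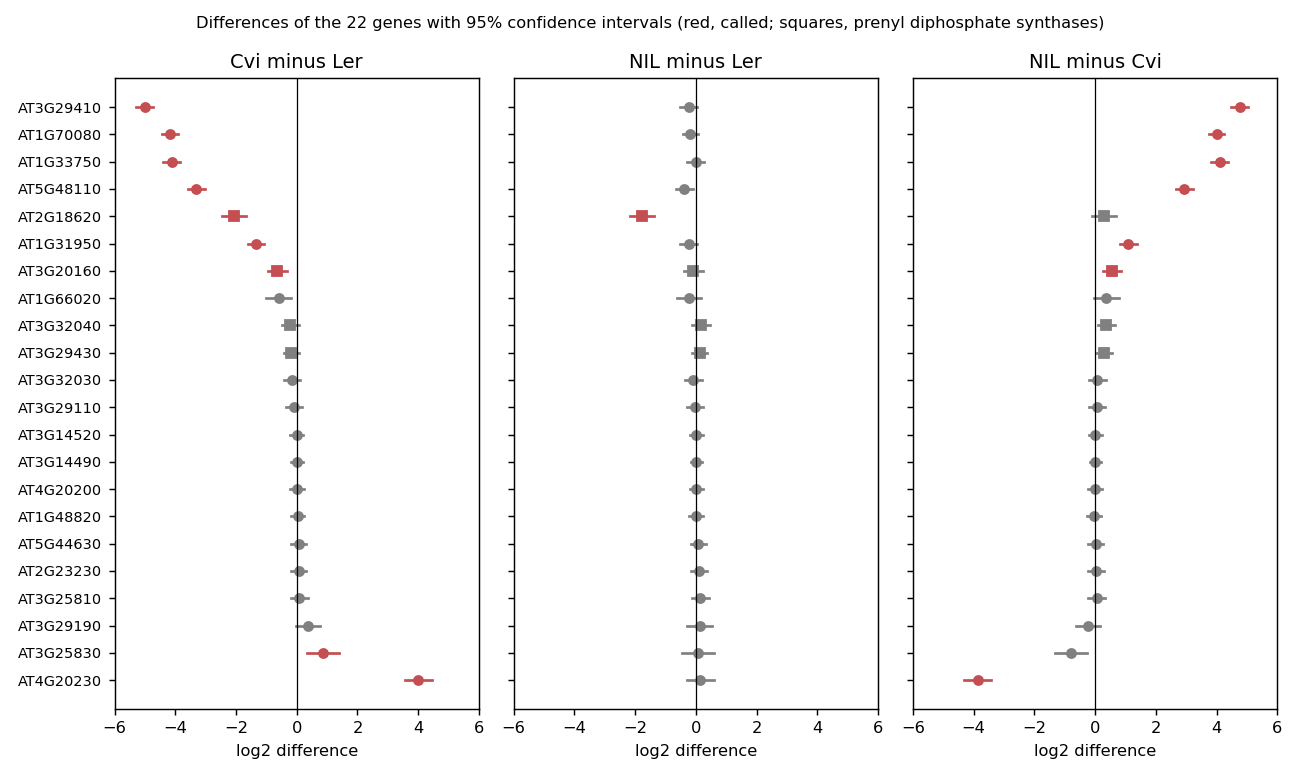
Log2 differences (x axis) of the 22 genes (rows) in the 3 comparisons, with bars for the 95% confidence interval from limma and 3 arrays per genotype. Between Cvi and Ler 9 genes are called (red), from −5.00 at AT3G29410 to 4.01 at AT4G20230, whereas between the NIL and Ler AT2G18620 is the one gene called.

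Of the 18 terpene synthase genes, 5 were called lower in Cvi than in Ler, beside 7.27% of all probe sets. All 5 were also called lower in Cvi than in the NIL, beside 5.23% of all probe sets. They belong to the TPS-a subfamily. The difference from Ler was 32.0-fold at AT3G29410, 18.1-fold at AT1G70080, 17.3-fold at AT1G33750, 9.90-fold at AT5G48110 and 2.54-fold at AT1G31950.

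AT3G29410, on chromosome 3, gave signals of 30.4, 27.0 and 27.3 on the Cvi arrays, 963, 924 and 827 on the Ler arrays and 663, 903 and 757 on the NIL arrays. No Cvi array came near the other genotypes, while the NIL and Ler arrays overlapped. The difference between Cvi and Ler was −5.00 ± 0.13 (SE), with a 95% confidence interval of −5.28 to −4.72 and an adjusted p of 4.08e-09 in limma, and it ranked 12 by size among all probe sets.

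AT1G70080 lies on chromosome 1, in the interval that the study searched for candidate genes, and the study picked it on these same arrays, so its difference is not independent evidence. Its signals were 16.4, 17.5 and 18.2 in Cvi, 290, 334 and 321 in Ler, and 252, 262 and 322 in the NIL. The Cvi arrays were low and close to each other, and the NIL arrays overlapped with those of Ler. The NIL was above Cvi by 4.00 (95% confidence interval 3.74 to 4.26, adjusted p = 1.24e-08 from limma), and its difference from Ler was −0.18 (interval −0.44 to 0.08). An exact two-sided permutation test gave p = 0.1 for the NIL against Cvi and p = 0.3 for the NIL against Ler, and groups of 3 arrays cannot reach a p below 0.1.

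AT1G33750, also on chromosome 1, showed signals of 20.0, 21.8 and 26.1 in Cvi, 373, 432 and 367 in Ler, and 411, 353 and 393 in the NIL. The Cvi arrays were again apart from all others. The difference between Cvi and Ler was −4.11 (standard error 0.12, adjusted p = 1.25e-08 from limma) and ranked 26 by size. For the NIL and Ler the 95% confidence interval of the difference ran from −0.29 to 0.26.

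AT5G48110, on chromosome 5, is known as a gene for a root diterpene synthase. Its signals were 77.5, 59.3 and 69.0 in Cvi, 666, 749 and 616 in Ler, and 540, 551 and 473 in the NIL. Here the 3 genotypes did not overlap, with the NIL between the accessions but close to Ler. The Cvi minus Ler value was −3.31 on the log2 scale (standard error 0.13, adjusted p = 7.20e-08 from limma). The NIL minus Ler difference of −0.38 (interval −0.66 to −0.09) did not pass over all probe sets (adjusted p = 0.834).

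AT1G31950 differed the least of the 5, with signals of 479, 455 and 437 in Cvi, 1105, 1244 and 1130 in Ler, and 1093, 1052 and 821 in the NIL. The Cvi arrays lay below those of both other genotypes. The difference between Cvi and Ler was −1.34 (standard error 0.12, adjusted p = 4.21e-05 from limma), and that between the NIL and Cvi was 1.10 (adjusted p = 2.14e-04). The NIL arrays lay just under those of Ler without overlap, at a difference of −0.24 (interval −0.51 to 0.03). Over all probe sets, 13.6% do not overlap between the NIL and Ler, which is also the share of the 22 genes (3 of 22).

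**Figure D2:**
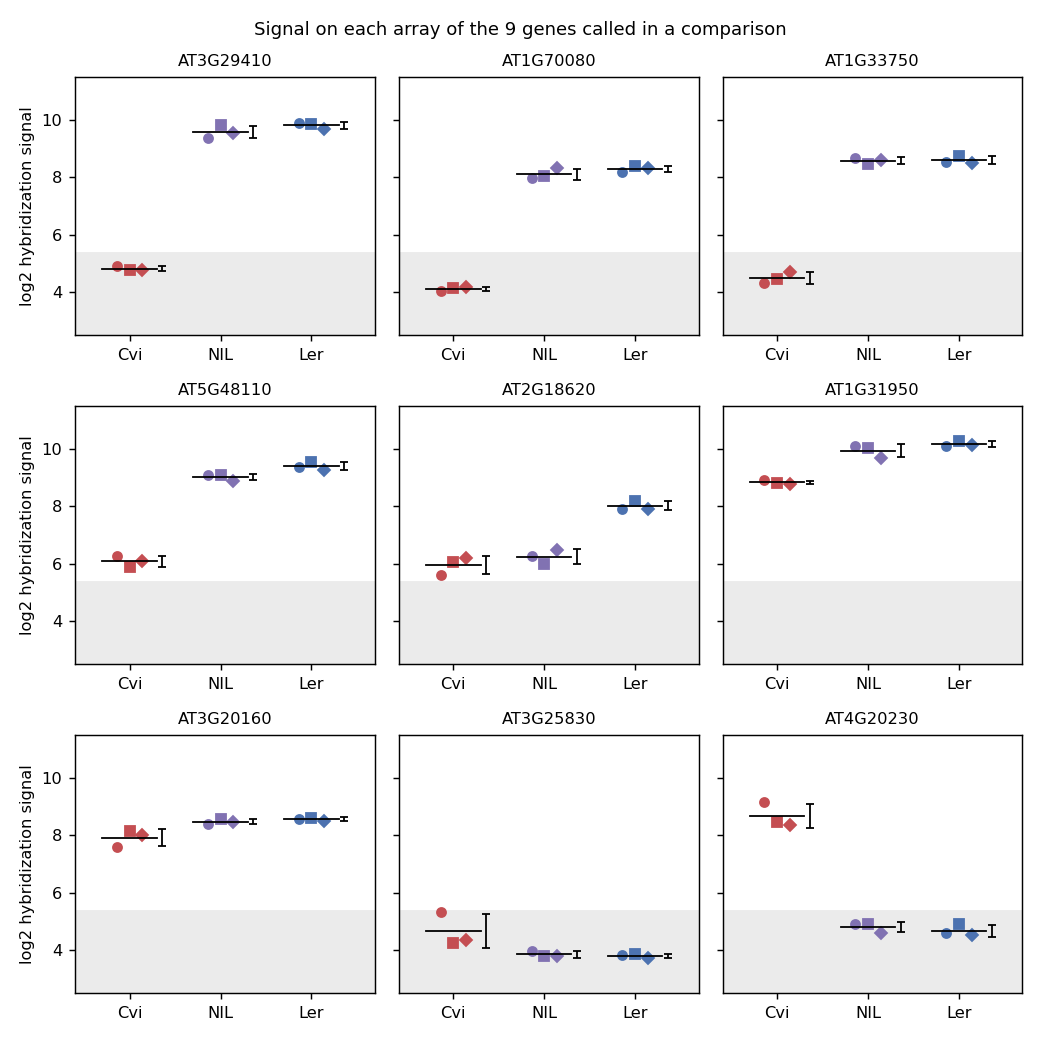
Log2 hybridization signal (y axis) of the 9 genes called in any comparison, with 1 point per array (circle, square and diamond for replicates 1, 2 and 3), the mean as a line and the SD as a bar (n = 3 arrays). The grey band covers the dimmest probe sets, defined by rank of mean signal (up to 5.37 on the log2 scale). The Cvi points of AT3G29410, AT1G70080 and AT1G33750 and the NIL and Ler points of AT4G20230 lie in it, and so do all 9 points of AT3G25830.

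In the opposite direction, the TPS-a gene AT4G20230 on chromosome 4 was 16.1-fold higher in Cvi than in Ler. Its signals were 568, 354 and 332 in Cvi, 23.9, 29.6 and 22.8 in Ler, and 30.1, 30.1 and 24.2 in the NIL. Cvi array 1 was the highest, but the other Cvi arrays were also far above every Ler and NIL array. The difference was 4.01 (standard error 0.20, adjusted p = 4.28e-07 from limma), and it was 3.76 without Cvi replicate 1. The nearby terpene synthase gene AT4G20200 gave at most 12.1 on any of the 9 arrays and a difference of 0.02 (interval −0.22 to 0.25).

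For AT3G29410, AT1G70080 and AT1G33750 in Cvi, and for AT4G20230 in Ler and the NIL, the mean log2 signals of 4.12 to 4.82 lie among the dimmest probe sets of the arrays (the third ranked lowest by mean log2 signal, up to 5.37), so these folds depend on the background of the arrays. With log2 of the signal plus 16 the differences were −4.38, −3.31, −3.39 and 3.35, and all 4 were called. No sequence of Cvi or Ler under the probes was compared, so fewer transcripts and poorer hybridization cannot be told apart.

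**Figure D3:**
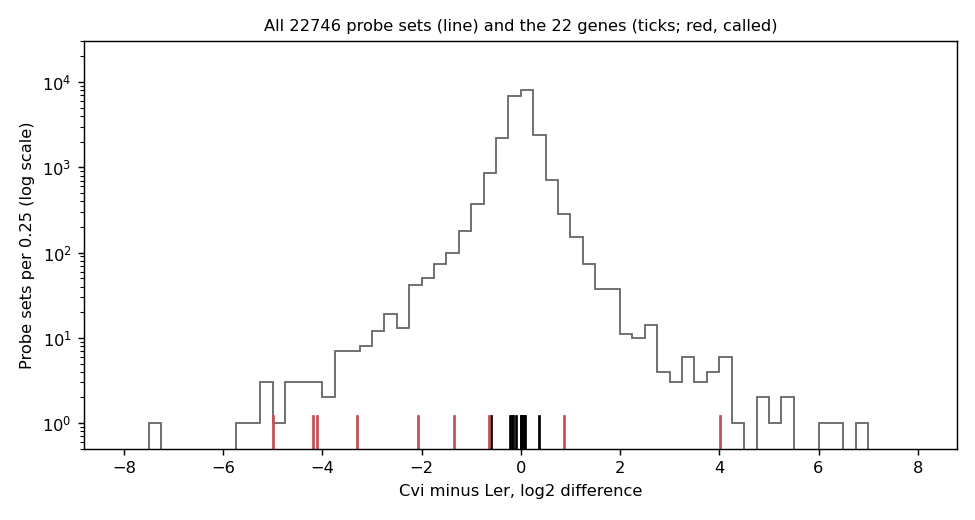
Number of probe sets (y axis, log scale) by the log2 difference between Cvi and Ler (x axis, bins of 0.25) for all 22746 probe sets, with a tick for each of the 22 genes (red, called). AT3G29410, AT1G70080, AT1G33750 and AT4G20230 rank 12, 24, 26 and 31 by size among all probe sets, while the 13 genes not called lie between −0.60 and 0.36.

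The gene AT3G25830 (TPS-CIN), a TPS-b gene whose enzyme makes the monoterpene 1,8-cineole in roots, was called higher in Cvi at a low signal. The signals were 40.2, 19.1 and 20.5 in Cvi, 14.1, 14.4 and 13.1 in Ler, and 15.7, 13.7 and 13.8 in the NIL. Cvi array 1, the array that stood apart, was the highest. The difference, 0.86 ± 0.23 (SE) with an adjusted p of 0.0365 in limma, was 0.52 without Cvi replicate 1 (adjusted p = 0.00222), and its adjusted p ranged up to 0.130 when other arrays were left out. The NIL minus Cvi difference of −0.80 (interval −1.32 to −0.28, adjusted p = 0.0558 from limma) was not called, but it was without Cvi replicate 1 (−0.46, adjusted p = 0.00583), 2 (adjusted p = 0.0217) or 3 (−0.94, adjusted p = 0.0487). The probe set shared by AT3G25830 and its neighbour AT3G25820 gave 2104, 1192 and 1456 in Cvi, 1347, 1715 and 1401 in Ler, and 1525, 1713 and 1853 in the NIL. All 3 genotypes overlapped there, and the difference between Cvi and Ler was 0.06 (interval −0.37 to 0.48).

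Among the 4 prenyl diphosphate synthase genes measured, 2 were called lower in Cvi than in Ler, beside 7.27% of all probe sets. These enzymes supply C20 chains to diterpene synthases, and several Arabidopsis members of the family are known to make C25 chains for sesterterpenes.

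AT2G18620, on chromosome 2, is the one gene of the 22 that differed between the NIL and Ler. Its signals were 48.3, 66.2 and 73.9 in Cvi, 77.0, 63.7 and 89.6 in the NIL, and 243, 294 and 243 in Ler. The Ler arrays were above all others, and the NIL and Cvi arrays overlapped. The log2 difference from Ler was −2.07 in Cvi (standard error 0.18, adjusted p = 2.53e-05 from limma) and −1.77 in the NIL (standard error 0.18, adjusted p = 0.00151 from limma), both against the same Ler arrays. The NIL minus Cvi difference of 0.30 did not pass (interval −0.09 to 0.69, adjusted p = 0.356).

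Along chromosome 2, the 50 named probe sets on either side of AT2G18620 were compared, those to which the annotation gives a single gene. Probe sets with several genes or none listed were left out, so some measured nearby may be missing. None of the 50 before AT2G18620 was called between the NIL and Ler in limma. Of the 50 after it, 3 were called, namely AT2G18690, AT2G18780 and AT2G19130 (picked out after their values were seen). Between Cvi and Ler 7 of the 50 before and 8 of the 50 after were called. For the NIL against Cvi it was 4 before and 3 after. Over all probe sets, named or not, 13.0% were called between Cvi and Ler, 10.8% between the NIL and Cvi and 0.356% between the NIL and Ler. Before AT2G18620, some uncalled NIL minus Ler values lay near those of Cvi minus Ler. Examples are AT2G18410, at −0.59 (adjusted p = 0.081 from limma) beside −0.57, and AT2G18600, at 0.77 (adjusted p = 0.406) beside 0.74. Where such differences begin was not tested. Over all named probe sets, 43 of 54 called between the NIL and Ler lie on chromosome 2, with none of them before AT2G18620. The terpene synthase gene AT2G23230, also on chromosome 2, gave 24.2 to 30.2 over all arrays and a NIL minus Ler difference of 0.09 (interval −0.16 to 0.35).

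**Figure D4:**
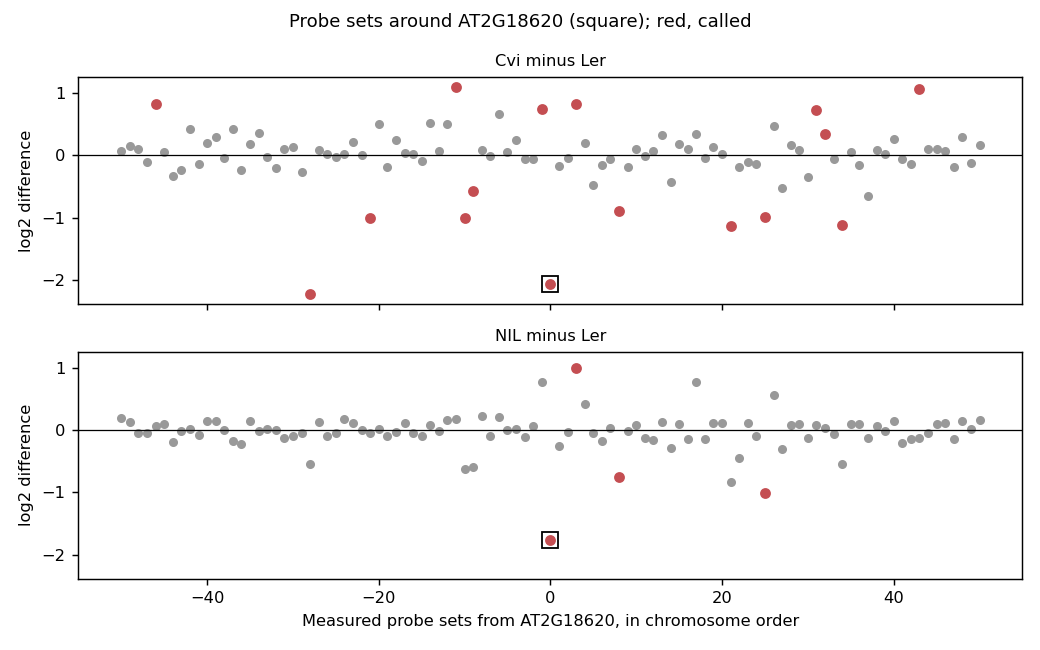
Log2 difference (y axis) between Cvi and Ler and between the NIL and Ler, in chromosome order (x axis). The 50 named probe sets on either side of AT2G18620 (square) are shown. Probe sets with several genes or none listed are left out. Red points are called in limma at 3 arrays per genotype. AT2G18620 is at −2.07 and −1.77, and called points in the lower panel lie at it or to its right. To its left, AT2G18410 and AT2G18600 lie at −0.59 and 0.77 in the lower panel without a call.

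AT3G20160, on chromosome 3, differed less. It gave 192, 281 and 259 in Cvi, 377, 393 and 359 in Ler, and 336, 379 and 354 in the NIL. The Cvi arrays lay below all others, with Cvi array 1 the lowest. The difference between Cvi and Ler was −0.64 (standard error 0.14, adjusted p = 0.0118 from limma), a 1.56-fold difference, and it was −0.48 without Cvi replicate 1 (adjusted p = 0.00303). The NIL was above Cvi by 0.56 (adjusted p = 0.0270 from limma). Both calls were lost without Ler replicate 1 (adjusted p = 0.0502 and 0.0511). The second was also lost without NIL replicate 1, 2 or 3 (adjusted p = 0.0641, 0.113 and 0.0859) and in a fit to the 6 arrays compared (adjusted p = 0.0918), and the first without Ler replicate 2 (adjusted p = 0.0504).

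The other 13 genes, 11 terpene synthase genes and 2 prenyl diphosphate synthase genes, were called in no comparison. Their signals lay between 7.41 and 44.3, and all 13 mean signals fall among those dimmest probe sets. No detection calls were used, so whether these genes are expressed in root tips cannot be told from the values. The 6 with the highest mean signals were AT3G29190, AT3G29110, AT2G23230, AT3G32040, AT1G66020 and AT3G25810. Of these, AT3G29110 gave 25.5, 28.7 and 32.2 in Cvi, 33.6, 31.3 and 27.5 in Ler, and 30.6, 29.5 and 29.5 in the NIL, with a difference between Cvi and Ler of −0.10 (interval −0.36 to 0.16). AT3G25810, a TPS-b gene next to the cineole synthase pair, gave 14.8, 17.6 and 20.6 in Cvi, 16.5, 17.6 and 15.4 in Ler, and 18.3, 18.8 and 17.6 in the NIL. The genotypes overlapped at both genes. AT5G44630, named here for its known role as a sesquiterpene synthase gene of flowers, gave 8.0 to 10.4 over the 9 arrays, with a difference of 0.06 (interval −0.19 to 0.32). AT3G32030 was measured by a probe set of a type that may detect more than 1 sequence.

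The prenyl diphosphate synthase gene AT3G29430 is the direct neighbour of AT3G29410, with no protein-coding gene between them in the TAIR10.1 order. It gave 7.7, 9.0 and 8.1 in Cvi, 9.7, 9.2 and 9.0 in Ler, and 11.2, 9.0 and 10.3 in the NIL. The genotypes overlapped, though Cvi met the others only at 9.0, and the difference between Cvi and Ler of −0.18 (interval −0.43 to 0.07) did not pass. The NIL minus Cvi difference of 0.30 (interval 0.05 to 0.55, adjusted p = 0.131 from limma) was not called either. The terpene synthase gene AT3G32030 and the prenyl diphosphate synthase gene AT3G32040, also direct neighbours, were both without a call. AT3G32040 gave 19.7, 27.4 and 22.4 in Cvi, 26.5, 27.7 and 25.7 in Ler, and 27.3, 29.7 and 32.4 in the NIL, so that Cvi and Ler overlapped. Its NIL minus Cvi difference of 0.37 (adjusted p = 0.105 from limma) was 0.50 without Cvi replicate 2 (adjusted p = 0.0248).

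Of the 13, the differences between Cvi and Ler were largest at the terpene synthase genes AT1G66020, at −0.60 (adjusted p = 0.0593 from limma), and AT3G29190, at 0.36 (adjusted p = 0.261), followed by the prenyl diphosphate synthase gene AT3G32040 at −0.21 (adjusted p = 0.361). AT1G66020 gave 18.1, 20.2 and 21.0 in Cvi and 21.9, 37.7 and 32.2 in Ler. The arrays of Cvi and Ler did not overlap, and the gene was called without Ler replicate 1, at −0.82 (adjusted p = 0.00732). It was also called with quantile normalization, at −0.62 (adjusted p = 0.0383), and with the replicate number as a block, at −0.60 (adjusted p = 0.0246). AT3G29190 gave 25.0, 38.6 and 44.3 in Cvi and 25.2, 30.3 and 26.5 in Ler. Cvi array 1 lay below all 3 Ler arrays and the other Cvi arrays above them, and the gene was called without Cvi replicate 1, at 0.60 (adjusted p = 0.00113). Over all probe sets, 27.2% do not overlap between Cvi and Ler, against 10 of the 22 genes (45.5%), and 26.5% do not overlap between the NIL and Cvi, against 9 of the 22 (40.9%).

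**Figure D5:**
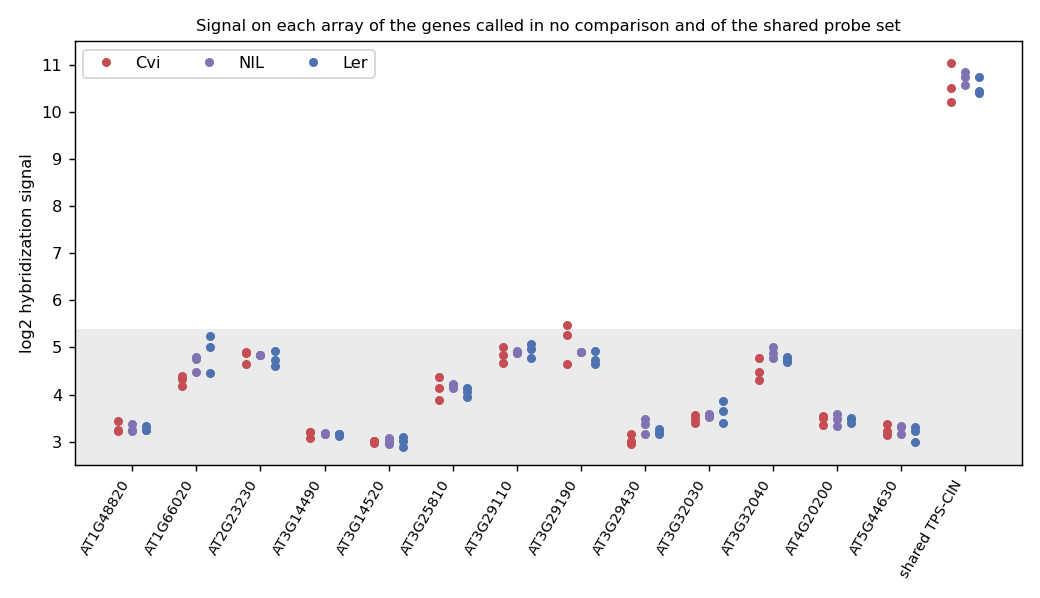
Log2 hybridization signal (y axis) of the 13 genes called in no comparison and of the probe set shared by AT3G25820 and AT3G25830, with 1 point per array (n = 3 per genotype). The means of the 13 genes, 3.01 to 4.93, lie in the grey band of the dimmest probe sets (up to 5.37), and the genotypes of the shared probe set overlap.

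Of 71 further genes in 8 lists of isoprenoid metabolism and its regulators, 4 are named in the annotation used here. These are PMK and MVD2, whose enzymes phosphorylate and decarboxylate mevalonate derivatives on the way to isopentenyl diphosphate, LYC, a lycopene cyclase gene of carotenoid synthesis, and CHLP, the geranylgeranyl reductase gene for the chlorophyll side chain. None of these 4 was called in limma in any of the 3 comparisons, and the other listed genes were not analysed here. The study's own candidate table from these arrays gives the lupeol synthase gene LUP1 as higher in Cvi than in Ler. LUP1 is not among the 4, so they do not stand for isoprenoid genes as a whole. At an unadjusted p under 0.05, 1 of the 4 was lower in Cvi than in Ler, namely CHLP at −0.39 (adjusted p = 0.116), beside 2968 lower of all 22746 probe sets. For the NIL against Cvi 1 of the 4 was higher, again CHLP, at 0.36 (adjusted p = 0.161), beside 2330 higher of all probe sets, and between the NIL and Ler it was 0 of the 4. PMK had a difference of 0.22 and MVD2 one of −0.07, and LYC had one of 0.14, so the 4 had a median of 0.04. Without Cvi replicate 1, CHLP was called at −0.53 between Cvi and Ler (adjusted p = 0.00538) and at 0.50 between the NIL and Cvi (adjusted p = 0.00934).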

How the data were processed

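Root tips of Cvi, Ler and NIL 170G-55-16 were measured on 9 ATH1 arrays, grouped by the labels. The deposited values are 1 linear intensity per probe set, normalized by the authors. MAS5 and RMA appear in the processing notes of the submitters, which give neither version nor role, and no build is given in the sources used here. Array medians were 110 to 122, and values were not normalized again. Precision is limited by the number of arrays. Of 22810 probe sets, 64 controls were left out. The platform annotation, joined to the TAIR10.1 gene table for locus tags, chromosomes and gene order, gives 1 gene for 13513, several for 503 and none listed for 8730. Log2 intensities were fitted in limma 3.58.1 (R 4.3.3; lmFit, eBayes, genotype the only term). The fit was first tested on simulated data. The members and gene lists were chosen with earlier results of these data known.

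Members called in any comparison are given on every array, the others by ranges, with the 6 of highest mean signal, the 3 of largest difference, tandem neighbours and members on chromosome 2 named, and genes of other lists only where called. The uncalled isoprenoid and marker genes and AT5G44630 were named outside this rule after their values were seen. The 8 isoprenoid lists were the mevalonate pathway (2 of 9 named), MEP pathway (0 of 7), isomerases and other prenyl diphosphate synthases (0 of 7), squalene and triterpene synthesis (0 of 18), later gibberellin synthesis (0 of 7), carotenoid and chlorophyll branches (2 of 6), cytochrome P450 genes (0 of 13) and regulators (0 of 4). The marker lists were root hair (1 of 6), root cap (0 of 3), stem cell niche and cell division (0 of 6), endodermis and stele (0 of 6) and shoot photosynthesis (1 of 7). Alternatives were quantile normalization, the dimmest probe sets (mean log2 up to 5.37) left out, a fit to 6 arrays, the replicate block, trend and robust estimation, log2 of signal plus 16, each array left out, and other thresholds.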

Additional observations from a re-analysis of the deposited data

How the results depend on the processing

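The counts of called genes stayed within 1.5 times under every alternative run, though the genes called were not always the same. With quantile normalization 9 genes were again called between Cvi and Ler, with AT3G25830 lost and AT1G66020 gained. With the dimmest probe sets left out only 8 of the 22 genes were tested, so that count could move little. Between Cvi and Ler the counts ranged from 7 to 10 (9 in the reported fit), and between the NIL and Ler the count was 1 throughout. Between the NIL and Cvi it ranged from 6 to 9 (7 in the reported fit). Leaving out single arrays gave the same ranges. AT3G29410, AT1G70080, AT1G33750, AT5G48110, AT1G31950, AT2G18620 and AT4G20230 were called between Cvi and Ler under all 15 other fits, and so was AT2G18620 between the NIL and Ler. AT3G25830 lost its call between Cvi and Ler with quantile normalization at 0.80 (adjusted p = 0.0647), at 0.48 (adjusted p = 0.0981) after adding 16 to each signal, in the fit to 6 arrays (adjusted p = 0.108), and without any 1 Ler or NIL array (adjusted p = 0.0591 to 0.130 from limma), and it could not be tested with the dimmest probe sets left out. The NIL minus Ler difference of AT1G33750, near 0 and not called, changed sign with quantile normalization (0.03) and ranged from −0.06 to 0.06 without single arrays, and that of AT3G25830 ranged from −0.01 to 0.09. The cause was not tested. With the replicate number as a block, 10, 1 and 8 genes were called in the 3 comparisons. The block added AT1G66020 between Cvi and Ler (−0.60, adjusted p = 0.0246 from limma) and AT3G25830 between the NIL and Cvi (−0.80, adjusted p = 0.0419), and the latter was also called with trend and robust estimation (adjusted p = 0.0447). Deviations of arrays with the same number correlated at −0.259 to 0.232 between genotypes, so the numbers were not taken to pair the arrays. Of the 22 genes, 14 lie among the dimmest probe sets, and no detection calls were used.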
